A study of Homo sapiens with 12 samples.

Results

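Semaphorins and the receptors that read them were followed by RNA-seq in MCF10A, a human cell line from breast epithelium that does not form tumours. The set holds 10 genes, chosen by name for their membership of these ligand and receptor families: the secreted ligands SEMA3A, SEMA3C and SEMA3F, the membrane-bound ligands SEMA4B and SEMA7A, the neuropilins NRP1 and NRP2, and the plexins PLXNA1, PLXNB2 and PLXND1. Earlier results of these data were known when they were chosen, so shares of changed genes among them do not describe the families as a whole. All 10 were among the 23459 genes of the count table, and all 10 were among the 14775 genes that passed the filter on low counts. Every group carried the doxycycline-inducible YAP5SA allele, which encodes YAP, a coactivator of TEAD transcription factors, in a form that Hippo signalling cannot switch off. The cells had also received, by lentivirus, a vector for the transcription factor JUN ("JUN") or an empty vector ("vector"). They were then given 100 ng/ml doxycycline ("Dox") or its solvent ethanol ("EtOH") for 16 h, in medium with insulin, hydrocortisone, cholera toxin and EGF. This gave 4 groups of 3 libraries (vector EtOH and vector Dox, JUN EtOH and JUN Dox). No group lacked the YAP5SA allele, so effects of the allele and of doxycycline itself cannot be told apart.

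Semaphorins are extracellular guidance cues, best known for steering axons, that also act on blood vessels, immune cells and epithelia. Plexins are their main signalling receptors and act through small GTPases on adhesion and the cytoskeleton. Most secreted semaphorins need a neuropilin to bind a plexin firmly, and neuropilins, which have only a short cytoplasmic tail, also serve as coreceptors for VEGF, whereas membrane-bound semaphorins usually bind plexins directly.

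The libraries held between 18594867 and 28993487 counted reads. JUN stood at 47.6 ± 10.5 CPM (a gene's counts scaled to a common library total, with TMM factors; SD, n = 3) in vector EtOH, at 189.7 ± 4.15 CPM in vector Dox, at 1279 ± 187 CPM in JUN EtOH and at 1248 ± 92.3 CPM in JUN Dox, so every library labelled JUN lay above every library labelled vector. YAP1 reads, which cannot be divided between the endogenous gene and the allele, ran from 171 to 191 CPM in vector EtOH and from 216 to 273 CPM in vector Dox, whereas JUN EtOH (210.5 to 249 CPM) and JUN Dox (208 to 365 CPM) overlapped. The log2 fold change of YAP1 on induction was 0.40 in vector cells (edgeR adjusted p = 0.0819) and 0.26 in JUN cells (edgeR adjusted p = 0.308). Neither was under 0.05. All 8 mammary epithelial markers were present, with a summed level of 7764 to 7978 CPM in vector EtOH, 4985 to 5687 CPM in vector Dox, 5823 to 7568 CPM in JUN EtOH and 3577 to 5980 CPM in JUN Dox. KRT5 and KRT17 made up most of this sum. Induction lowered KRT5, KRT14, KRT17 and TP63 in vector cells (log2 fold changes -0.61, -1.65, -1.27 and -1.27). In JUN cells it lowered KRT14, KRT17, TP63 and CDH1 (-0.78, -0.73, -0.96 and -1.03). JUN without induction raised KRT14 (1.20) and TP63 (0.94) and lowered EPCAM (-1.76) and KRT18 (-0.90). Each of these had an edgeR adjusted p under 0.05. Of the markers of other cells, the 5 endothelial genes summed to 0.782 to 2.93 CPM, the 5 neuronal genes to 0.848 to 4.93 CPM and the 5 fibroblast genes to 108 to 160 CPM. The fibroblast sum was nearly all PDGFRA (87.9 to 156 CPM), and within it LUM was 8.53-fold higher (edgeR adjusted p = 1.69e-06) and DCN 2.94-fold higher (edgeR adjusted p = 0.00103) with JUN without induction, and 5.86-fold (edgeR adjusted p = 1.22e-05) and 3.86-fold (edgeR adjusted p = 3.07e-04) with induction, while COL3A1 did not exceed 0.0998 CPM in any library. Of the 4 leukocyte genes CD3E was at 0 throughout, and their sum was nearly all CD14, which lay at 24.3 to 30.9 CPM in vector EtOH, 4.30 to 5.84 CPM in vector Dox, 9.20 to 11.7 CPM in JUN EtOH and 1.45 to 3.52 CPM in JUN Dox. The part of these markers in the results was not tested. JUN Dox libraries 1 and 3 had opposite trends of expression with the GC content of genes (r = -0.36 and 0.36 across genes, which are not independent replicates), and JUN EtOH libraries 1 and 3 had weaker trends in the same directions (r = -0.20 and 0.22). With a covariate for the trend of each library, 8, 7, 5 and 5 of the 10 genes passed in the 4 group comparisons named in the next paragraph, in the order induction in vector cells, JUN without induction, induction in JUN cells and JUN with induction, the same counts as without it, and 4 in place of 2 passed for the interaction. Counts that involve JUN Dox are also given without both of them, which leaves 1 JUN Dox library that is assumed to vary like the other groups.

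The comparisons were YAP5SA induction in vector cells (vector Dox against vector EtOH), YAP5SA induction in JUN cells (JUN Dox against JUN EtOH), the JUN vector without induction (JUN EtOH against vector EtOH), the JUN vector with induction (JUN Dox against vector Dox), and the interaction, which is the log2 response of JUN cells to induction less that of vector cells. Each group enters more than 1 of them, so they share libraries and are set side by side only. A gene is said to have changed at an adjusted p under 0.05 in edgeR's quasi-likelihood test, with Benjamini-Hochberg adjustment over all 14775 genes. The study's methods call the 3 libraries of a group biological replicates, but the labels do not say whether these came from separate cultures, and the p-values measure only the spread between these libraries.

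In vector cells, YAP5SA induction raised SEMA3C and SEMA7A and lowered SEMA3A, SEMA3F, SEMA4B, NRP1, PLXNB2 and PLXND1. These were 2 of 10 genes higher, where 15.6% of all tested genes rose, and 6 of 10 lower, where 14.4% of all tested genes fell. The median log2 fold change of the 10 genes was -0.57, and that of all tested genes was 0.01. In bulk RNA, fewer cells that express a gene and less of its RNA per cell cannot be told apart. The plot of CPM by group shows each library.

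**Figure D1:**
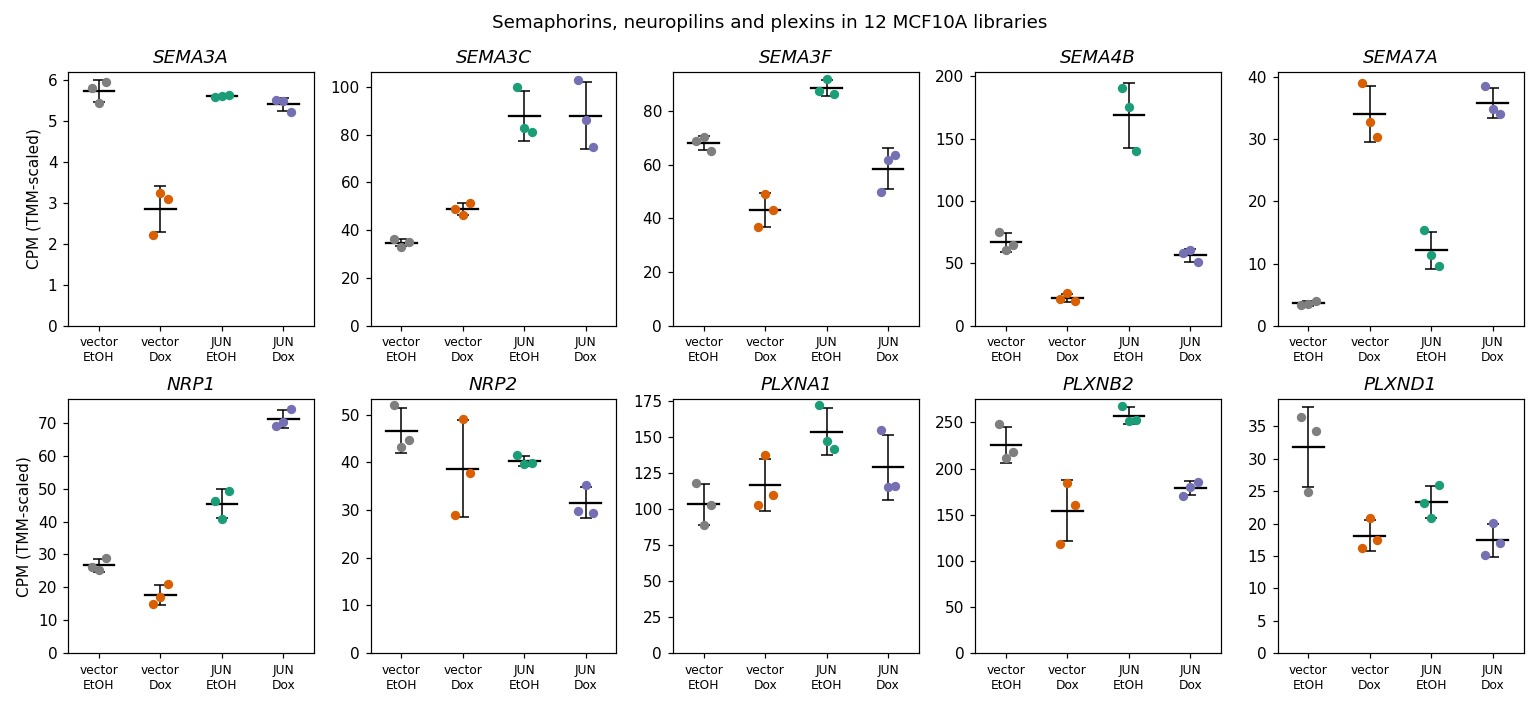
Each panel shows 1 gene, with TMM-scaled CPM on a linear axis from 0, a point for each library, a horizontal bar for the group mean and whiskers of 1 SD (n = 3). SEMA7A rose from 3.59 to 34.1 CPM with induction in vector cells, SEMA4B fell with induction and was higher with JUN, and NRP1 fell with induction in vector cells and rose in JUN cells.

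In JUN cells, induction raised SEMA7A and NRP1 (2 of 10, where 11.2% of all tested genes rose) and lowered SEMA3F, SEMA4B and PLXNB2 (3 of 10, where 10.3% fell), with a median of -0.31 against 0.00 for all tested genes. Without JUN Dox libraries 1 and 3, 3 genes in place of 5 passed the test, because SEMA3F and PLXNB2 then had edgeR adjusted p-values of 0.0603 and 0.150. Their log2 fold changes stayed within -0.66 to -0.50 and -0.56 to -0.49 over all alternatives, this one included. Without induction, the JUN vector raised SEMA3C, SEMA3F, SEMA4B, SEMA7A, NRP1 and PLXNA1 (6 of 10, where 20.1% of all tested genes rose) and lowered PLXND1 (1 of 10, where 18.9% fell), with a median of 0.48 against 0.00. Under induction, SEMA3A, SEMA3C, SEMA3F, SEMA4B and NRP1 were higher in JUN Dox than in vector Dox (5 of 10, where 18.4% of all tested genes were higher) and 0 of 10 were lower, where 17.2% were lower, with a median of 0.33 against 0.00. DESeq2 also called 0 of them lower, and none was lower at an unadjusted p under 0.05 in edgeR. Without JUN Dox libraries 1 and 3, 5 genes passed as well. The interaction passed for NRP1 in the positive direction (1 of 10, where 0.291% of all tested genes did) and for SEMA7A in the negative direction (1 of 10, where 0.826% did), and both passed without those libraries too.

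**Figure D2:**
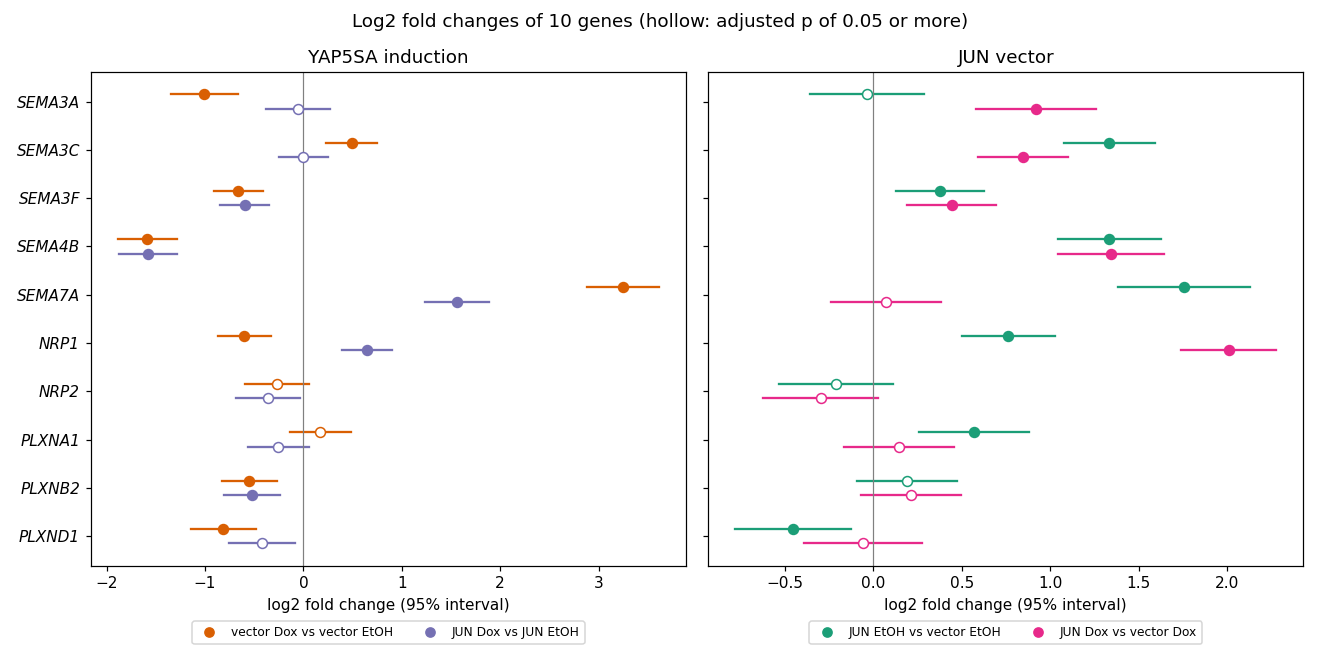
Log2 fold changes of the 10 genes with 95% intervals, for YAP5SA induction on the left and the JUN vector on the right, with filled points where edgeR's adjusted p is under 0.05. The paired intervals of SEMA3F, SEMA4B and PLXNB2 nearly coincide in both panels, whereas those of SEMA3A, SEMA7A and NRP1 do not overlap within either panel.

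Among the secreted ligands, SEMA3A signals through NRP1 with A-type plexins and is known for collapsing growth cones. Its gene (Entrez 10371) lies on the minus strand at chr7:83585093-84122040 in GRCh37, the build of all gene positions given here. The vector EtOH libraries had 5.82, 5.44 and 5.97 CPM, the vector Dox libraries 2.22, 3.25 and 3.10 CPM, the JUN EtOH libraries 5.59, 5.60 and 5.63 CPM, and the JUN Dox libraries 5.52, 5.49 and 5.22 CPM. Vector Dox alone was low, at 51 to 75 reads per library, and did not overlap any other group. With induction SEMA3A fell 2.01-fold in vector cells (log2 fold change -1.01, SE 0.16, edgeR adjusted p = 2.33e-04). In JUN cells the log2 fold change was -0.05 (95% interval -0.38 to 0.27, edgeR adjusted p = 0.853). JUN Dox exceeded vector Dox 1.89-fold (edgeR adjusted p = 4.68e-04), whereas JUN EtOH and vector EtOH overlapped (edgeR adjusted p = 0.875). The interaction of 0.95 (SE 0.22) had an edgeR adjusted p of 0.0524 and so missed the threshold. It passed with DESeq2, with upper-quartile scaling, with a covariate for the GC trend and without vector Dox library 2, and its adjusted p lay between 0.00929 and 0.258 in the alternatives run.

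SEMA3C, which binds both neuropilins, lies on the same chromosome at chr7:80371854-80551675, also on the minus strand (Entrez 10512). Its libraries had 36.2, 33.03 and 35.2 CPM in vector EtOH, 49.1, 46.3 and 51.3 CPM in vector Dox, 99.8, 82.9 and 81.0 CPM in JUN EtOH, and 102.7, 86.0 and 74.9 CPM in JUN Dox. All 6 JUN libraries were above all 6 vector libraries, and the vector groups did not overlap each other, while both JUN groups did. Without induction SEMA3C was 2.52-fold higher with JUN (log2 fold change 1.34, SE 0.12, edgeR adjusted p = 1.08e-06), and with induction it was 1.80-fold higher (edgeR adjusted p = 7.52e-05). Induction raised it 1.40-fold in vector cells (log2 fold change 0.49, edgeR adjusted p = 0.00648) and left a log2 difference of 0.00 in JUN cells (95% interval -0.25 to 0.25, edgeR adjusted p = 0.996). The interaction of -0.49 (SE 0.17) did not pass, with an edgeR adjusted p of 0.259, and passed under the GC covariate at 0.0307. The exons of SEMA3C are 38.7% GC and those of SEMA3A 37.2%, below the 59.0% to 63.8% of SEMA3F, both membrane semaphorins and the plexins. JUN Dox library 1, whose trend favoured genes of low GC content, was the highest JUN Dox library for SEMA3C and library 3, with the opposite trend, the lowest; the part of the trend was not tested.

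SEMA3F prefers NRP2 as its coreceptor and is known as a ligand that repels endothelial and epithelial tumour cells. It lies on the plus strand at chr3:50192478-50226508 (Entrez 6405). The values were 68.7, 70.4 and 65.3 CPM in vector EtOH, 36.7, 49.2 and 43.3 CPM in vector Dox, 87.45, 91.9 and 86.4 CPM in JUN EtOH, and 49.7, 61.9 and 63.8 CPM in JUN Dox. Each Dox group lay wholly below its EtOH group, and each JUN group wholly above the vector group of the same treatment. SEMA3F fell 1.58-fold with induction in vector cells (log2 fold change -0.66, SE 0.12, edgeR adjusted p = 6.07e-04) and 1.51-fold in JUN cells (-0.60, SE 0.12, edgeR adjusted p = 0.00199). With JUN it was 1.30-fold higher without induction (edgeR adjusted p = 0.0185) and 1.36-fold higher with it (edgeR adjusted p = 0.00908). The 1.30-fold difference no longer passed when vector EtOH library 3 or JUN EtOH library 2 was left out, with edgeR adjusted p-values up to 0.0668. The responses differed by 0.06 on the log2 scale (95% interval -0.29 to 0.42, edgeR adjusted p = 0.976).

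SEMA7A is anchored to the membrane by a glycolipid and binds integrins that contain ITGB1 as well as PLXNC1. It lies on the minus strand at chr15:74701630-74726299 (Entrez 8482). Its libraries had 3.27, 3.54 and 3.95 CPM in vector EtOH, 39.0, 32.7 and 30.4 CPM in vector Dox, 15.4, 11.3 and 9.62 CPM in JUN EtOH, and 38.5, 34.9 and 34.0 CPM in JUN Dox. The vector EtOH libraries were the lowest, at 71 to 88 reads each, the JUN EtOH libraries lay between, and the Dox groups were highest and overlapped each other. Induction raised SEMA7A 9.50-fold in vector cells (log2 fold change 3.25, SE 0.17, edgeR adjusted p = 4.49e-09) and 2.95-fold in JUN cells (1.56, SE 0.15, edgeR adjusted p = 4.71e-06). The JUN vector raised it 3.38-fold without induction (1.76, SE 0.17, edgeR adjusted p = 2.69e-06), while with induction the log2 difference was 0.07 (95% interval -0.24 to 0.38, edgeR adjusted p = 0.732). The 2 responses to induction therefore differed by -1.69 on the log2 scale (SE 0.23, edgeR adjusted p = 9.46e-04). That difference also passed in all 20 alternatives, with adjusted p-values up to 0.0175.

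SEMA4B is a transmembrane semaphorin, on the plus strand at chr15:90703836-90772911 (Entrez 10509). The values were 75.1, 60.7 and 64.8 CPM in vector EtOH, 21.2, 26.05 and 19.6 CPM in vector Dox, 190.8, 175.3 and 140.2 CPM in JUN EtOH, and 58.0, 60.9 and 50.8 CPM in JUN Dox. JUN EtOH was highest and vector Dox lowest, each apart from all other libraries, while vector EtOH and JUN Dox overlapped by a narrow margin. Induction lowered SEMA4B 3.004-fold in vector cells (log2 fold change -1.59, SE 0.14, edgeR adjusted p = 8.75e-07) and 2.99-fold in JUN cells (-1.58, SE 0.14, edgeR adjusted p = 1.43e-06). The JUN vector raised it 2.52-fold without induction (1.34, SE 0.14, edgeR adjusted p = 3.47e-06) and 2.54-fold with induction (1.34, SE 0.14, edgeR adjusted p = 4.29e-06). The interaction was 0.01 with a 95% interval of -0.39 to 0.41, with an edgeR adjusted p of 0.996.

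Promoters are shown for 3 of these ligands: SEMA7A, with the largest fold change of the 10 genes on induction in vector cells, and SEMA4B and SEMA3F, which fell with YAP5SA and rose with JUN. SEMA3C, which rose in vector cells on induction and with JUN, is not shown, and its 2 windows held none of the motifs searched. The sequences are from RefSeq on GRCh38.p14, a different build from that of the count table, and run 5′ to 3′ on the gene's strand from 250 bases before to 50 bases after a listed start. The table held 14 starts for 8 of the 10 genes, with no entry for SEMA3A and NRP1. The windows were searched on both strands for TGANTCA (the AP-1 motif, which JUN-containing dimers bind), TGACGTCA (the CRE motif, also bound by some JUN dimers) and GGAATG (the TEAD motif, bound by the partners of YAP), which have no overlapping matches in these windows, and matches are in capitals. AP-1 was found in 0 of the 14 windows, where 7.71% of all 35116 promoter windows hold it, CRE in 0 of 14, where 1.85% do, and TEAD in 1 of 14, where 14.03% do. The TEAD match was in 1 of the 3 SEMA3F windows, at position -63 from that start, and this window is the one shown. The other 2 SEMA3F windows held none. A match is no binding site by itself, and its absence says only that these letters are not in this window. The SEMA7A window, the more upstream of its listed starts, lies at chr15:74433909-74434208 on the minus strand, with 70.0% GC and 23 CpG. The other SEMA7A window, at chr15:74433655-74433954 with 77.3% GC and 45 CpG, is not shown and held none of the motifs. The SEMA4B window, the most upstream of 3 listed starts, lies at chr15:90184670-90184969 on the plus strand, with 72.3% GC and 32 CpG. That of SEMA3F lies at chr3:50155074-50155373 on the plus strand, with 80.7% GC and 47 CpG.
SEMA7A promoter: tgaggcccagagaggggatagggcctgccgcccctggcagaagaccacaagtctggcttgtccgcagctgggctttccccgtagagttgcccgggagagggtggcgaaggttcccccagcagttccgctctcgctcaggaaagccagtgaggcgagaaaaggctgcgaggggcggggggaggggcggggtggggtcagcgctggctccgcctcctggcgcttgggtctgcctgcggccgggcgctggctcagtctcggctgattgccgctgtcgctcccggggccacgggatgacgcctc
SEMA4B promoter: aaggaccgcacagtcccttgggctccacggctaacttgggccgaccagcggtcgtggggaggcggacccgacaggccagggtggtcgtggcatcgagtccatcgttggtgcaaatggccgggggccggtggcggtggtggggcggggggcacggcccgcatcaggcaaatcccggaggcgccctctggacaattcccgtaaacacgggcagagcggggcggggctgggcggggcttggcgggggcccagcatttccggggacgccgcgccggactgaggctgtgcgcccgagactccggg
SEMA3F promoter: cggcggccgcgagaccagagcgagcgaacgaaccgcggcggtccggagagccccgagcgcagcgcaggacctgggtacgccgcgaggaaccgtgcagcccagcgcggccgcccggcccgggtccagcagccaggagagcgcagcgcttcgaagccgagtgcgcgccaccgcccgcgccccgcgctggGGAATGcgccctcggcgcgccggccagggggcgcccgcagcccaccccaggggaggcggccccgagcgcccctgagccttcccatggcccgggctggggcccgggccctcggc

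Of the coreceptors, NRP1 binds SEMA3A and the long forms of VEGFA. It lies on the minus strand at chr10:33466420-33625190 (Entrez 8829). Its libraries had 26.2, 25.1 and 28.99 CPM in vector EtOH, 14.9, 16.9 and 21.1 CPM in vector Dox, 46.3, 40.8 and 49.4 CPM in JUN EtOH, and 69.1, 70.2 and 74.3 CPM in JUN Dox. The 4 groups did not overlap, and their order from low to high was vector Dox, vector EtOH, JUN EtOH and JUN Dox. With induction NRP1 fell 1.52-fold in vector cells (log2 fold change -0.60, SE 0.13, edgeR adjusted p = 0.00213) and rose 1.57-fold in JUN cells (0.65, SE 0.12, edgeR adjusted p = 0.00140). With JUN it was 1.70-fold higher without induction (0.76, SE 0.12, edgeR adjusted p = 2.35e-04) and 4.03-fold higher with induction (2.01, SE 0.13, edgeR adjusted p = 2.66e-08). The interaction was 1.25 (SE 0.17, edgeR adjusted p = 0.00128), and it passed in all 20 alternatives with adjusted p-values up to 0.0224. Without JUN Dox libraries 1 and 3 the rise in JUN cells was 0.61 on the log2 scale, with an edgeR adjusted p of 0.0484. Antisense lncRNAs that the count table does not list share 561 exon bases with NRP1, 147 with NRP2 and 110 with SEMA3F, and reads from such a pair cannot be told apart unless the counting used strand, which the sources used here do not state.

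NRP2, the coreceptor that SEMA3F prefers, lies on the plus strand at chr2:206546714-206662857 (Entrez 8828). Its values were 52.1, 43.3 and 44.6 CPM in vector EtOH, 29.04, 49.2 and 37.9 CPM in vector Dox, 41.5, 39.6 and 39.9 CPM in JUN EtOH, and 29.9, 35.3 and 29.4 CPM in JUN Dox. The vector Dox libraries spread widely and overlapped all other groups, while JUN Dox lay below both EtOH groups. NRP2 did not pass in any comparison with edgeR or DESeq2, and only for induction in JUN cells was its unadjusted edgeR p under 0.05 (0.0344). It had log2 fold changes between -0.36 and -0.21 in the group comparisons, with edgeR adjusted p-values from 0.115 to 0.284. For induction in vector cells the 95% interval was -0.59 to 0.05, and for induction in JUN cells it was -0.68 to -0.03. For induction in JUN cells it passed in 3 of 21 alternatives (only the libraries of the comparison, and without vector Dox library 1 or 2), with adjusted p-values from 0.0264. Leaving out vector Dox library 2, the highest of its group, gave -0.49 for induction in vector cells, which passed (edgeR adjusted p = 0.0147). Leaving out vector Dox library 1, the lowest, gave -0.46 for the JUN vector with induction, which passed as well (edgeR adjusted p = 0.0123). Vector Dox library 1 was above its group mean for 2 of the 10 genes and library 2 for 7 of 10, with median deviations of -0.19 and 0.20 on the log2 scale.

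Set against each other per length, NRP1 and NRP2 changed places. The ratio of NRP1 to NRP2 in CPM per kb of exon was 0.697 ± 0.0891 (SD, n = 3) in vector EtOH and 0.569 ± 0.136 in vector Dox, which overlapped, 1.36 ± 0.124 in JUN EtOH and 2.75 ± 0.327 in JUN Dox. All 6 ratios in JUN cells were above 1, and all 6 in vector cells were below it. Reads were mapped without splitting across introns, which lowers the counts of genes made of many short exons and so bears on levels compared between genes. Whether the loss was equal in all libraries was not tested.

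Of the plexins, PLXNA1 pairs with neuropilins as a receptor for secreted semaphorins and lies on the plus strand at chr3:126701536-126756232 (Entrez 5361). The values were 117.9, 89.2 and 102.8 CPM in vector EtOH, 103.0, 137.2 and 109.4 CPM in vector Dox, 172.1, 147.4 and 141.3 CPM in JUN EtOH, and 154.8, 115.5 and 116.1 CPM in JUN Dox. JUN EtOH lay above both vector groups, and JUN Dox overlapped every other group. PLXNA1 was 1.49-fold higher with JUN without induction (log2 fold change 0.57, SE 0.15, edgeR adjusted p = 0.00684), and under induction the difference was 0.14 (95% interval -0.17 to 0.45, edgeR adjusted p = 0.464). Neither induction passed, with log2 fold changes of 0.17 in vector cells (edgeR adjusted p = 0.406) and -0.25 in JUN cells (edgeR adjusted p = 0.245). The difference between those responses was -0.43 (95% interval -0.87 to 0.01, edgeR adjusted p = 0.578).

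PLXNB2, a receptor for several class 4 semaphorins, lies on the minus strand at chr22:50713408-50746075 (Entrez 23654). Its libraries had 248.0, 211.5 and 217.9 CPM in vector EtOH, 118.4, 183.9 and 160.9 CPM in vector Dox, 267.9, 251.9 and 252.5 CPM in JUN EtOH, and 170.3, 180.4 and 185.8 CPM in JUN Dox. Each Dox group lay wholly below its EtOH group, and vector Dox and JUN Dox overlapped. Induction lowered PLXNB2 1.46-fold in vector cells (log2 fold change -0.55, SE 0.13, edgeR adjusted p = 0.00585) and 1.44-fold in JUN cells (-0.53, SE 0.13, edgeR adjusted p = 0.0106). Neither JUN comparison passed (0.19 with edgeR adjusted p = 0.271 and 0.21 with edgeR adjusted p = 0.225), although every JUN EtOH library exceeded every vector EtOH library. The interaction was 0.02 (95% interval -0.38 to 0.42, edgeR adjusted p = 0.991).

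PLXND1, which binds SEMA3E without a neuropilin and is best known from blood vessels, lies on the minus strand at chr3:129274057-129325519 (Entrez 23129). The values were 36.4, 24.8 and 34.3 CPM in vector EtOH, 16.2, 20.8 and 17.4 CPM in vector Dox, 23.1, 20.9 and 25.9 CPM in JUN EtOH, and 15.1, 20.1 and 16.9 CPM in JUN Dox. Each Dox group lay below its EtOH group, and vector EtOH, with library 2 low, overlapped JUN EtOH. PLXND1 fell 1.76-fold with induction in vector cells (log2 fold change -0.82, SE 0.16, edgeR adjusted p = 0.00107), and in JUN cells the value was -0.42 (95% interval -0.75 to -0.09, edgeR adjusted p = 0.0697). The value in JUN cells passed in 5 of 21 alternatives (DESeq2, the filter at a mean of 5 CPM, only the libraries of the comparison, and without vector EtOH library 2 or vector Dox library 1), with adjusted p-values from 0.0388. It was 1.37-fold lower with JUN without induction (-0.45, SE 0.15, edgeR adjusted p = 0.0301), a call that was lost without vector EtOH library 1 or 3 or JUN EtOH library 1 or 2, with adjusted p-values up to 0.126. With induction the JUN difference was -0.06 (edgeR adjusted p = 0.797), and the interaction was 0.39 (95% interval -0.07 to 0.86, edgeR adjusted p = 0.690).

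The plot of the induction in JUN cells against that in vector cells sets both responses of each gene side by side. SEMA3F, SEMA4B, PLXNB2 and NRP2 lay near the line of equal response, NRP1 above it and SEMA7A below it. SEMA3A lay 0.95 above the line and SEMA3C 0.49 below it, and PLXND1 and PLXNA1 0.39 above and 0.43 below, none of which passed the test of the interaction.

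**Figure D3:**
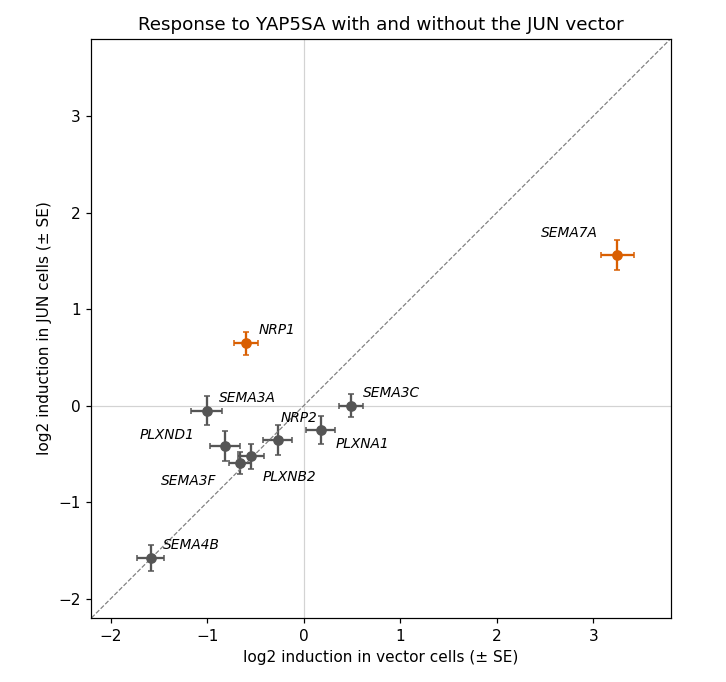
The log2 fold change on YAP5SA induction in vector cells (horizontal) and in JUN cells (vertical) for each of the 10 genes, with bars of 1 SE and a dashed line of equal response. Coloured points, SEMA7A (3.25 and 1.56) and NRP1 (-0.60 and 0.65), are those whose interaction passed at an edgeR adjusted p under 0.05.

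Per kb of exon, PLXNB2 was the highest of the 10 genes in all 4 groups, from 21.2 CPM per kb in vector Dox to 35.4 in JUN EtOH, and SEMA3A the lowest, from 0.308 in vector Dox to 0.620 in vector EtOH, and neither overlapped its neighbour in the order. SEMA7A moved most in that order. It was ninth of the 10 in vector EtOH at 0.944 ± 0.0899 CPM per kb (SD, n = 3), apart from both neighbours. In vector Dox it reached 8.96 ± 1.17 CPM per kb and the third place, where it overlapped PLXNA1 (10.4) and SEMA3F (8.93). In JUN EtOH it was seventh at 3.19 ± 0.775 CPM per kb, overlapping NRP1 (3.95) and NRP2 (2.90), and in JUN Dox the fifth at 9.42 ± 0.635 CPM per kb, without overlap with its neighbours. SEMA4B was second in JUN EtOH at 24.1 ± 3.71 CPM per kb and sixth in both Dox groups, at 3.18 ± 0.482 in vector Dox and 8.09 ± 0.745 in JUN Dox. The ratio of SEMA7A to SEMA4B per length was 0.0999 ± 0.0173 in vector EtOH and 0.131 ± 0.0152 in JUN EtOH, and 2.85 ± 0.539 in vector Dox and 1.17 ± 0.0999 in JUN Dox. Per length, SEMA7A was thus the lower of the pair in all 6 EtOH libraries and the higher in all 6 Dox libraries. In CPM not divided by length, the order in JUN Dox was the reverse. SEMA7A had 38.5, 34.9 and 34.0 CPM there, and SEMA4B 58.0, 60.9 and 50.8 CPM. The exon lengths used were 3800 bases for SEMA7A and 6995 bases for SEMA4B. NRP1 was eighth in vector EtOH (2.32 ± 0.173 CPM per kb) and seventh in JUN Dox (6.18 ± 0.238 CPM per kb), in both apart from its neighbours.

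The wider pathway was taken as 76 further genes, of which 61 passed the filter on low counts, including the remaining semaphorins and plexins, VEGF ligands and receptors that use neuropilins, other semaphorin receptors, effectors of plexins and neuropilins, and proteases that cut semaphorins. Induction in vector cells raised 6 of the 61 (9.84%, where 15.6% of all tested genes rose) and lowered 14 (23.0%, where 14.4% fell), with a median log2 fold change of -0.06. Induction in JUN cells raised 6 (9.84% against 11.2%) and lowered 10 (16.4% against 10.3%), with a median of -0.10. The JUN vector without induction raised 27 (44.3% against 20.1%) and lowered 6 (9.84% against 18.9%), with a median of 0.27, and with induction 25 were higher (41.0% against 18.4%) and 8 lower (13.1% against 17.2%), with a median of 0.16. The interaction passed for 2, both negative (3.28% against 0.826%), and for 0 in the positive direction (against 0.291%).

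**Figure D4:**
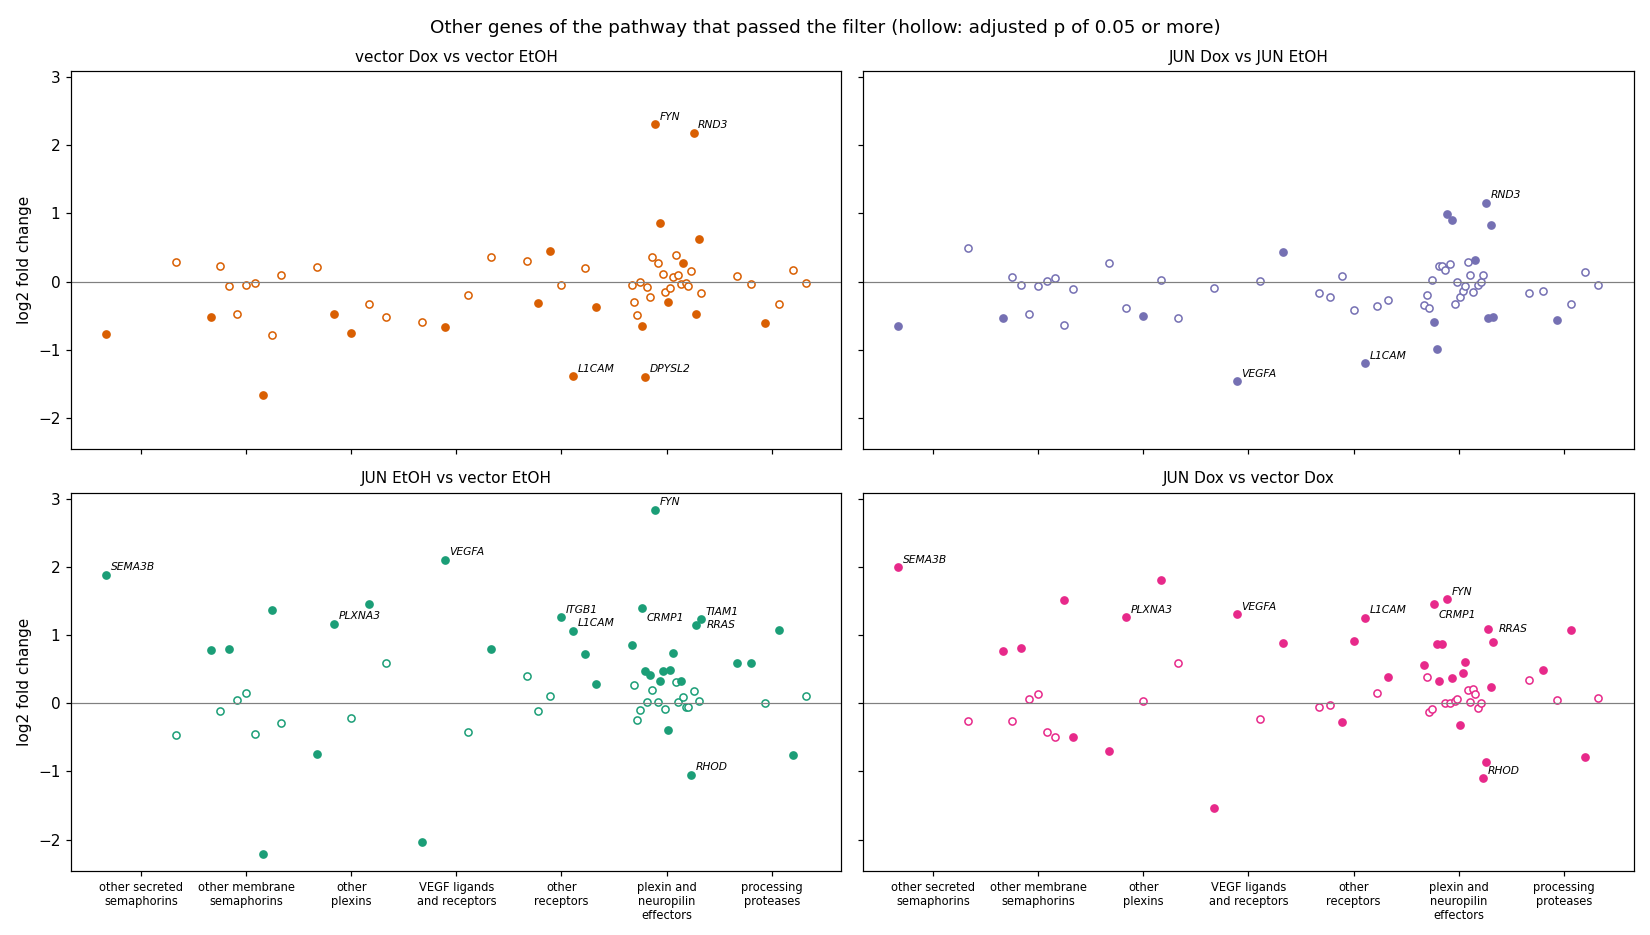
Log2 fold changes of the 61 other pathway genes in the 4 group comparisons, by class of gene, with filled points where edgeR's adjusted p is under 0.05 and names for genes that changed by at least 1 log2 unit at a mean of at least 5 CPM. SEMA3B, VEGFA and FYN stand highest in their classes in JUN EtOH against vector EtOH, at 1.89, 2.11 and 2.84.

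Of the 2 other secreted semaphorins tested, SEMA3B, known as a tumour suppressor candidate, was 1.89 log2 units higher with JUN without induction (SE 0.15, edgeR adjusted p = 3.42e-07) and 2.0 higher with induction (SE 0.16, edgeR adjusted p = 2.78e-07). It lay at 7.76, 9.13 and 11.8 CPM in vector EtOH and at 31.3, 39.5 and 35.2 CPM in JUN EtOH. SEMA3E and SEMA3G did not pass the filter. Of the 9 other membrane semaphorins, 3 rose and 1 fell with JUN without induction (20.1% and 18.9% of all tested genes), and 0 rose and 2 fell with induction in vector cells (15.6% and 14.4% of all tested genes). Of the 5 other plexins, 2 rose and 1 fell with JUN without induction (against the same 20.1% and 18.9%), with PLXNA3, a neuropilin partner, at 1.17 (SE 0.15, edgeR adjusted p = 4.54e-05).

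VEGFA, the growth factor that shares NRP1 with SEMA3A, was 2.11 log2 units higher with JUN without induction (SE 0.15, edgeR adjusted p = 7.11e-08) and 1.31 higher with induction (SE 0.14, edgeR adjusted p = 7.69e-06). Upon induction it fell in both kinds of cell. The log2 fold change was -0.67 in vector cells (SE 0.14, edgeR adjusted p = 0.00281) and -1.47 in JUN cells (SE 0.14, edgeR adjusted p = 4.27e-06). The interaction passed for 0 of the 4 VEGF genes tested, VEGFA included. The VEGF receptors FLT1, KDR and FLT4 did not pass the filter. L1CAM, a cell adhesion molecule that joins NRP1 in a SEMA3A receptor complex, had log2 fold changes of -1.39 and -1.20 with induction in vector and JUN cells (edgeR adjusted p = 2.12e-05 and 6.79e-05) and of 1.07 and 1.26 with JUN without and with induction (edgeR adjusted p = 1.01e-04 and 4.93e-05). ITGB1, the integrin chain that SEMA7A can engage, was 1.27 higher with JUN without induction (SE 0.18, edgeR adjusted p = 1.04e-04). It lay at 518, 446 and 488 CPM in vector EtOH and at 1322, 1210 and 962 CPM in JUN EtOH. In JUN Dox it spread widely, at 1113, 903 and 610 CPM. Its exons are 41.8% GC, and the part of the GC trends of the JUN libraries in this spread was not tested.

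Among the 28 effectors tested, 12 rose (42.9%, against 20.1% of all tested genes) and 2 fell (7.14%, against 18.9%) with JUN without induction, and 5 rose (17.9%, against 15.6%) and 4 fell (14.3%, against 14.4%) with induction in vector cells, the last 2 shares being near those of all genes. FYN, a Src-family kinase bound to A-type plexins, lay at 0.799, 0.948 and 0.449 CPM in vector EtOH, 3.44, 3.52 and 3.97 CPM in vector Dox, 5.46, 5.73 and 4.60 CPM in JUN EtOH, and 9.38, 11.5 and 10.7 CPM in JUN Dox. It rose by 2.31 log2 units with induction in vector cells and by 0.995 in JUN cells (edgeR adjusted p = 7.50e-04 for the latter). With JUN without induction it was 2.84 higher. Its interaction was -1.32 (SE 0.29, edgeR adjusted p = 0.0387), over a vector EtOH base of 10 to 21 reads per library. RND3, a small GTP-binding protein that binds plexins, rose by 2.19 with induction in vector cells and by 1.15 in JUN cells, with an interaction of -1.03 (SE 0.14, edgeR adjusted p = 0.00128). It was 20.0 to 21.7 CPM in vector EtOH, 87.8 to 103.9 CPM in vector Dox, 22.2 to 24.3 CPM in JUN EtOH and 48.6 to 58.3 CPM in JUN Dox. DPYSL2, a collapsin response mediator that acts after SEMA3A, fell by 1.40 on the log2 scale with induction in vector cells (SE 0.13, edgeR adjusted p = 9.85e-07). In JUN cells its log2 fold change on induction was -0.997 (SE 0.12, edgeR adjusted p = 4.54e-05). With JUN without induction, CRMP1 of the same family rose by 1.41, the Rac activator TIAM1 by 1.24 and the small GTPase RRAS by 1.15, and RHOD fell by 1.05 on the log2 scale, and under induction CRMP1, RRAS and RHOD differed by 1.46, 1.09 and -1.10, with edgeR adjusted p-values from 2.19e-06 to 1.28e-04 over these values. Of the 6 proteases, 3 rose and 1 fell with JUN without induction (against 20.1% and 18.9%), and 1 fell with each induction (against 14.4% and 10.3%).

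The genes whose pattern over the 4 group means was nearest were sought for the 3 of the 10 genes with the widest range, among 11356 genes that averaged 5 CPM or more. Likeness was the root mean square difference of the 4 centred mean log2 CPM values. For SEMA7A, whose group means span 3.29 log2 units, these were SH2D5 (0.269), the coagulation starter tissue factor F3 (0.328) and CCDC80 (0.350). For SEMA4B, with a span of 2.92, they were the metallothionein MT1F (0.0849), the transcription factor KLF9 (0.127) and the NAD-synthesis enzyme NAMPT (0.153). For NRP1, with a span of 2.02, they were LURAP1L (0.151), LOXL1-AS1 (0.183) and the transcription factor KLF4 (0.217). With only 4 points each, these are descriptions.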

How the data were processed

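RNA was measured in 12 libraries of MCF10A cells, 4 groups of 3 as the sample titles name them. The authors deposited 1 table of raw read counts per gene (whole numbers, not normalized, Entrez IDs). By the study's methods, poly(A) libraries were read as 75-base single ends, trimmed with Cutadapt, aligned to hg19 with Bowtie2 and counted by overlap with genes. The submitters' processing notes give Cutadapt 4.2 and Bowtie2 2.3.5.1, and the methods name another Bowtie2 version. Bowtie2 does not split reads across introns, so junction reads are lost, and whether equally in all libraries was not tested. Whether counting used strand is not given in the sources used here.

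Of the 23459 IDs, 99.4% were paired with a symbol. Counts were analysed in R 4.3.3 with edgeR 4.0.16: filterByExpr (minimum count 10, minimum total 15), TMM factors, 1 fit of 4 group means over all 12 libraries (biological coefficient of variation 12.5%), robust quasi-likelihood tests and Benjamini-Hochberg adjustment over 14775 genes. The study's own tool, DESeq2 (1.42.0 here), was an alternative, because edgeR's test is the main one for deposited counts throughout. CPM were computed from the deposited counts, and a count of 3, taken as the floor, was worth 0.107 to 0.150 CPM, which covers counting error only. No replicate pair agreed within sampling noise. Scripts were tested on simulated data. Exon length and GC content were taken from the GENCODE annotation on GRCh37, with the exons of all transcripts of a gene merged. Promoters were taken from RefSeq on GRCh38.p14.

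The 10 genes, the lists and the tests were chosen with earlier results of these data known. All 10 genes were named in every comparison. Other pathway genes were named when they passed with at least 1 log2 unit at a mean of at least 5 CPM, up to the 4 largest per list and comparison. Values of a named gene in further comparisons are also given in places. Not every comparison in which a named gene met this rule is given. For each of the 3 members of widest range, 3 like genes were named. Alternatives covered tool, scaling, filters, libraries in the fit, a replicate block, a GC covariate and each library left out.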

Additional observations from a re-analysis of the deposited data

Results flagged for a closer look

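The response of 2 of the 10 genes to YAP5SA induction differed between JUN cells and vector cells by the test of the difference itself. For SEMA7A the response of JUN cells less that of vector cells, on the log2 scale, was -1.69 (SE 0.23, edgeR adjusted p = 9.46e-04), with a rise in all 3 Dox libraries over all 3 EtOH libraries in both kinds of cell. For NRP1 it was 1.25 (SE 0.17, edgeR adjusted p = 0.00128), with all 3 Dox libraries below the EtOH libraries in vector cells and all 3 above them in JUN cells. Of the 61 other pathway genes tested, RND3 and FYN rose less on the log2 scale with induction in JUN cells than in vector cells. The difference was -1.03 for RND3 (SE 0.14, edgeR adjusted p = 0.00128) and -1.32 for FYN (SE 0.29, edgeR adjusted p = 0.0387). FYN started from only 10 to 21 reads per library in vector EtOH. In mean CPM it rose from 0.732 to 3.64 in vector cells and from 5.26 to 10.5 in JUN cells. The interactions of RND3 and FYN were not recomputed in the alternatives. No group had 4 or more libraries, so single libraries could not be tested as outliers.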

How the results depend on the processing

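Over 50 values (10 genes in 5 comparisons) and 1035 recomputed ones, 990 kept their direction and their side of the threshold, 8 lost a call, 16 gained one and 21 changed sign. The sign changes touched 0 values that had passed, and none exceeded 0.147 in size. Leaving out 1 library at a time gave SEMA3C -0.13 to 0.10 for induction in JUN cells. For the JUN vector with induction it gave SEMA7A -0.0048 to 0.19, PLXNA1 -0.0047 to 0.29 and PLXND1 -0.17 to 0.061. For the interaction it gave SEMA3F -0.033 to 0.18, SEMA4B -0.11 to 0.14, NRP2 -0.25 to 0.13 and PLXNB2 -0.13 to 0.17. Without JUN Dox libraries 1 and 3, a choice made after seeing the data, PLXNA1 (-0.012) and PLXND1 (0.147) changed sign for the JUN vector with induction and NRP2 (0.0804) for the interaction, and 3 genes in place of 5 passed for induction in JUN cells, with fewer libraries in the fit. With the GC covariate 4 genes in place of 2 passed the interaction, SEMA3A and SEMA3C being added; the cause was not tested. Over all genes the interaction count was 165 in edgeR, 358 by DESeq2, 289 with the GC covariate, 97 to 242 with 1 library left out and 68 without both JUN Dox libraries.

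Of 18 pairs of same-numbered libraries, 7 deviated together at r over 0.1 (range -0.26 to 0.47, highest for replicate 3 of JUN EtOH and JUN Dox), so the numbers were not taken as pairing the samples. With the replicate number as a block, 8, 7, 5, 5 and 2 of the 10 genes passed for induction in vector cells, the JUN vector without induction, induction in JUN cells, the JUN vector with induction and the interaction, the same counts as without it. SEMA3A, with a mean of 4.90 CPM, has no value with the filter at a mean of 5 CPM, and the interaction has none with only the libraries of 1 comparison. Other scalings moved the median of all genes by at most 0.048.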
